A study of Homo sapiens with 8 samples.

Results

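CD207, FCER1A, the 5 human CD1 genes, FLT3, ZBTB46 and CCR7 were followed in microglia grown in tri-culture and in mono-culture. These 10 genes, chosen by symbol among 78899 genes of the deposited count table, are markers or regulators of Langerhans cells and dendritic cells. Each symbol matched 1 Ensembl identifier, so choosing among several identifiers by their counts was never needed. The set was proposed with earlier results of this same comparison known, and CD207 and FCER1A had been singled out for their increase. Values of the 10 genes are therefore a description and carry no p. Where a member is said to be called, its Benjamini-Hochberg adjusted p in the edgeR fit over all tested genes was under 0.05.

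The 8 bulk RNA-seq libraries came from GFP-labelled microglia differentiated from H1, a human embryonic stem cell line that the labels also describe as an induced pluripotent source. Tri-cultures (4 libraries) received no exogenous cytokine, and the labels do not say which partner cells they held. Mono-cultures (4 libraries) received IL-34 at 100 ng/mL and M-CSF at 10 ng/mL. Cells of both groups were harvested 2 weeks after plating and sorted for GFP in batches 1 to 4, each of which gave 1 library of each group. Absence of added cytokine and presence of partner cells cannot be told apart in this design, and p-values measure the spread between batches of 1 line. Library totals ran from 17602010 to 24491765 counts in tri-culture and from 17037481 to 33363972 counts in mono-culture.

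Dendritic cells take up antigen, migrate to lymphoid tissue and present it to T cells, and Langerhans cells are phagocytes of the epidermis. Microglia are tissue macrophages of the brain. CD1 proteins resemble MHC class I molecules and hold lipids instead of peptides: CD1A, CD1B and CD1C present lipid antigens to T cells, CD1D presents lipids to natural killer T cells, and CD1E works inside the cell, where it helps load lipids onto the others. CD207 encodes langerin, a C-type lectin of Langerhans cells that forms Birbeck granules, and FCER1A encodes the IgE-binding chain of the high-affinity IgE receptor.

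Sequence before the RefSeq start is shown for the members with large differences and, for contrast, for CD1D, which was not called. RefSeq promoter entries (GRCh38.p14) were matched for 8 of the 10 members, and CD1B and CCR7 had no match. Each line gives the 250 bases before the RefSeq start of the gene, read 5′ to 3′ on the strand of the gene. Capitals mark the PU.1 core GAGGAA and the E-box CAGGTG on either strand. The windows are CD207 at chr2:70835817-70836066 (minus strand), FCER1A at chr1:159302086-159302335, CD1A at chr1:158254174-158254423, CD1E at chr1:158353644-158353893, CD1C at chr1:158289673-158289922 and CD1D at chr1:158179697-158179946 (all on the plus strand).
CD207: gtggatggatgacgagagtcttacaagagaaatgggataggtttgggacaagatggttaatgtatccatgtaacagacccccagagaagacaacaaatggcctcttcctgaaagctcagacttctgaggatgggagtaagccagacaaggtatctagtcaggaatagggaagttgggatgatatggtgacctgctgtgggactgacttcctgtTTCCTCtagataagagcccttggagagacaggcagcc
FCER1A: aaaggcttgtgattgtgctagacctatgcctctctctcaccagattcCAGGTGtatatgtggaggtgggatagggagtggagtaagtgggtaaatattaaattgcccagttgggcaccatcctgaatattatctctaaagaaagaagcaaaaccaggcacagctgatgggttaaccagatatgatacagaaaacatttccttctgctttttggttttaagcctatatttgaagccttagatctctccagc
CD1A: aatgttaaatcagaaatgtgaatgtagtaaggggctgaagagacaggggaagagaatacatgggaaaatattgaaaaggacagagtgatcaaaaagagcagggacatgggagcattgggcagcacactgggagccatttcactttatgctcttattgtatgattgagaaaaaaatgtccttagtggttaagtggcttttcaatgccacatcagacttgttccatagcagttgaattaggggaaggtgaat
CD1E: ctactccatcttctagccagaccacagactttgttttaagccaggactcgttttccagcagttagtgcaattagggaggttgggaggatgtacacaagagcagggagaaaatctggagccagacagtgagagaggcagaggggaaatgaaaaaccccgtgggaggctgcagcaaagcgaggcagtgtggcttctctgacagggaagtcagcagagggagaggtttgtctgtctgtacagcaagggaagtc
CD1C: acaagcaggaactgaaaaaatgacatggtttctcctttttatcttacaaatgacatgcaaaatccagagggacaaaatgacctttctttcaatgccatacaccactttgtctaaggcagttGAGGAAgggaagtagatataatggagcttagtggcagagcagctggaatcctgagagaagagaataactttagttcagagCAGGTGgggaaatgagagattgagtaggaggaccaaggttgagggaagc
CD1D: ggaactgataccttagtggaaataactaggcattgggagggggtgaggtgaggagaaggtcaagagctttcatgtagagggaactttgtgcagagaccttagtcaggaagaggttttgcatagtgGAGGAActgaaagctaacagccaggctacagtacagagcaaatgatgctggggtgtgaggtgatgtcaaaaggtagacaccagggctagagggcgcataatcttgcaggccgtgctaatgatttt

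PU.1 is a transcription factor of myeloid cells. Its core GAGGAA was found in the windows of CD207, CD1C, CD1D and FLT3, which is 4 of 8 members, against 23.6% of all 35116 RefSeq promoters. The E-box CAGGTG, a motif of E proteins, was found in FCER1A, CD1C and FLT3, against 17.5% of all promoters. The interferon-stimulated response element (3.02% of all promoters), an NF-kB motif (0.527%) and the AP-1 motif TGANTCA (6.57%) had no match in any member window. A match is a description of letters in these windows. The RefSeq start of FCER1A lies 12622 bases from the outermost start in the GENCODE 29 gene model used for gene coordinates, and for the 5 other genes shown the distance is at most 287 bases. The windows of FCER1A and CD1A lie wholly inside those gene models, and the windows of CD1C, CD1E and CD207 lie partly inside. These windows are thus upstream of the RefSeq start but not of the outermost GENCODE start.

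CD207 and FCER1A were nearly absent from mono-culture libraries and well detected in every tri-culture library. CD207 (ENSG00000116031, GRCh38 chr2:70830214-70835822, minus strand) had 24.8, 71.2, 54.4 and 42.9 CPM (library-scaled counts per 1e6 counts, with TMM factors) in tri-culture libraries 1 to 4, against 0.171, 0, 0.119 and 0.0600 CPM in mono-culture. That was 4311 reads over the tri-culture group and 10 over the mono-culture group, and the groups did not overlap. The mean was 48.3 ± 19.5 CPM in tri-culture and 0.0876 ± 0.0740 CPM in mono-culture (SD, n = 4 each), and the fitted log2 fold change was 8.82 (SE 0.46). FCER1A (ENSG00000179639, chr1:159289714-159308224, plus strand) had 59.0, 122, 70.2 and 99.2 CPM in tri-culture, against 0, 0.167, 0.119 and 0.0600 CPM in mono-culture. Its reads summed to 7733 in tri-culture and 8 in mono-culture, with no overlap of groups and a log2 fold change of 9.96 (SE 0.41). Both genes passed the filter on low counts only through tri-culture. Their folds rest on these few mono-culture reads: with a prior count of 2 in the fit the log2 fold change was 8.03 for CD207 and 9.02 for FCER1A, and without batch 1 that of CD207 was 9.49. In bulk RNA, fewer cells of a type and less RNA per cell cannot be told apart, which holds for every gene below.

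**Figure D1:**
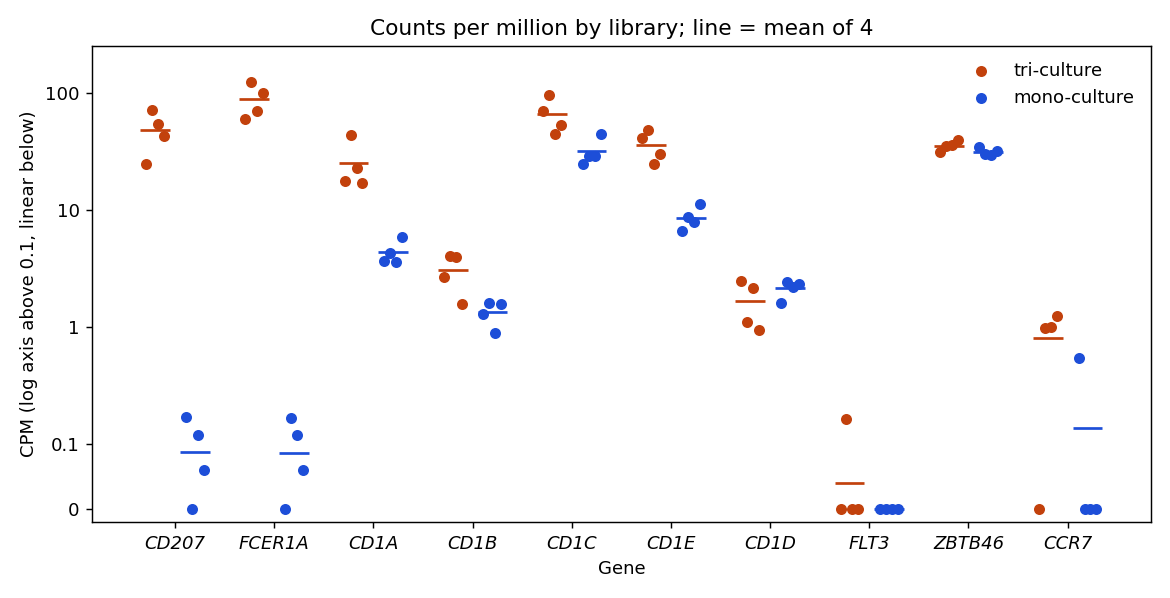
CPM of the members (log axis above 0.1, linear below) in each library, with tri-culture on the left of mono-culture for each gene, 1 point per library and a line at the mean of 4. CD207 and FCER1A stand apart, with every tri-culture library at 24.8 CPM or more and every mono-culture library at 0.171 CPM or less.

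Across the set, 6 of the 9 tested members were called higher in tri-culture and 0 lower. Over all 16249 tested genes, 13.9% were called higher and 13.0% lower (26.9% in either direction), and since the set was proposed on this comparison nothing is read from the excess. The 6 were CD207, FCER1A, CD1A, CD1B, CD1C and CD1E. CD1D, ZBTB46 and CCR7 were not called, and FLT3 was too low to be tested. Of the 9, the CPM ranges of 4 members (CD207, FCER1A, CD1A and CD1E) lay wholly above those of mono-culture, against 15.3% of all tested genes.

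CD1A, a lipid-presenting molecule of Langerhans cells and cortical thymocytes, was 5.86-fold higher in tri-culture. CD1A (ENSG00000158477, chr1:158254137-158258269, plus strand) had 17.6, 43.8, 22.5 and 16.9 CPM in tri-culture, against 3.63, 4.27, 3.61 and 5.88 CPM in mono-culture. The mean was 25.2 ± 12.6 CPM in tri-culture and 4.35 ± 1.07 CPM in mono-culture (SD, n = 4 each). The groups did not overlap, and tri-culture library 2 was the highest by a wide margin. The log2 fold change was 2.55 (SE 0.30), and CD1A was higher in 4 of 4 batches. CD1E, the intracellular member, was 4.22-fold higher, with 41.0, 47.5, 24.5 and 29.8 CPM in tri-culture, against 6.57, 8.60, 7.82 and 11.1 CPM in mono-culture. For CD1E (ENSG00000158488, chr1:158353696-158357553, plus strand) the groups did not overlap either, with a log2 fold change of 2.08 (SE 0.22), and CD1E was higher in 4 of 4 batches.

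CD1C, the marker of blood cDC2 dendritic cells, was the most abundant CD1 gene in both groups and 2.08-fold higher in tri-culture. CD1C (ENSG00000158481, chr1:158289786-158293630, plus strand) had 69.6, 95.0, 43.9 and 52.8 CPM in tri-culture, against 24.4, 29.0, 28.8 and 44.0 CPM in mono-culture. The groups met at the edge: mono-culture library 4 at 44.0 CPM lay just above tri-culture library 3 at 43.9 CPM. The log2 fold change was 1.05 (SE 0.23), and the ratio within each batch was 2.85, 3.28, 1.52 and 1.20 in batches 1 to 4.

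CD1B, which presents long-chain mycobacterial lipids, was low in both groups, and whether it was called depended on single libraries. CD1B (ENSG00000158485, chr1:158327951-158331531, minus strand) had 2.66, 4.04, 3.99 and 1.56 CPM in tri-culture, against 1.30, 1.61, 0.895 and 1.56 CPM in mono-culture. Tri-culture library 4 overlapped mono-culture, and within batch 4 the ratio was 0.999. The log2 fold change was 1.21 (SE 0.35), a call over all 8 libraries. CD1B was no longer called without tri-culture library 2 (log2 fold change 1.04), tri-culture library 3 (1.06) or mono-culture library 3 (1.04), nor without batch 2 (1.15) or batch 3 (0.90).

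CD1D, the natural killer T cell ligand, was not higher in tri-culture on average. CD1D (ENSG00000158473, chr1:158179947-158184896, plus strand) had 2.48, 1.10, 2.13 and 0.935 CPM in tri-culture, against 1.61, 2.44, 2.18 and 2.34 CPM in mono-culture, and the groups overlapped. The log2 fold change was -0.36 (SE 0.35), with an approximate 95% interval of -1.05 to 0.33, which holds values on both sides of 0.

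Counts could in part be shared between CD1 genes of similar sequence. In GENCODE 29 transcripts, 2.59% of the CD1A 50-base stretches also occurred in another CD1 gene, as did 3.66% for CD1B, 1.61% for CD1E, 0.454% for CD1D and 0 for CD1C, and none occurred in a gene outside the family.

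The makeup of the CD1 family differed between cultures. Genes can be compared for level only per length, so the deposited per-length signal was used. Summed over the 5 CD1 genes, this signal was 213, 319.5, 163 and 163 in tri-culture, against 59.3, 69.8, 66.3 and 101 in mono-culture, with no overlap. CD1C made up 44.9 ± 3.61% of the sum in tri-culture and 62.4 ± 2.17% in mono-culture (SD, n = 4 each). CD1E made up 27.6 ± 3.42% in tri-culture and 18.8 ± 0.775% in mono-culture. CD1A made up 23.0 ± 5.58% in tri-culture and 11.7 ± 0.640% in mono-culture. CD1B took 3.83 ± 1.74% in tri-culture and 4.75 ± 1.19% in mono-culture, and CD1D took 0.694 ± 0.380% in tri-culture and 2.40 ± 0.411% in mono-culture.

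**Figure D2:**
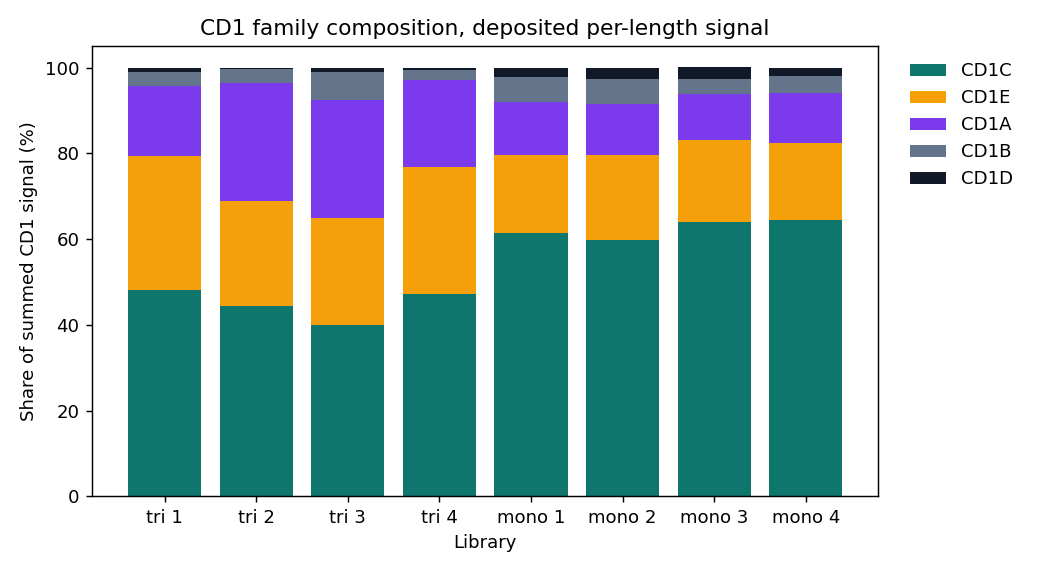
Share of the summed per-length CD1 signal (percent) held by each CD1 gene in each library, tri-culture to the left of mono-culture. CD1C holds 40.0 to 48.0% in tri-culture libraries and 59.8 to 64.5% in mono-culture libraries, and the CD1A and CD1E shares are larger in tri-culture.

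Ratios within a library do not depend on library scaling. The CD1A to CD1C signal ratio was 0.341, 0.622, 0.692 and 0.432 in tri-culture, against 0.200, 0.199, 0.169 and 0.180 in mono-culture. The CD1E to CD1C ratio was 0.653, 0.554, 0.620 and 0.625 in tri-culture, against 0.298, 0.329, 0.301 and 0.279 in mono-culture. Neither ratio overlapped between groups, so relative to CD1C both CD1A and CD1E were higher in every tri-culture library than in any mono-culture library. For CD1A to CD1E the groups overlapped, at 0.522, 1.12, 1.12 and 0.691 in tri-culture and 0.672, 0.605, 0.562 and 0.645 in mono-culture. The CD1B to CD1C ratio averaged 0.0881 in tri-culture and 0.0767 in mono-culture.

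Among the remaining members, ZBTB46 differed least between the groups. ZBTB46, a transcription factor gene of classical dendritic cells and their precursors, had 31.0, 34.9, 35.8 and 39.1 CPM in tri-culture, against 34.3, 29.8, 29.2 and 31.8 CPM in mono-culture. ZBTB46 (ENSG00000130584, chr20:63743666-63831244, minus strand) had overlapping groups and a log2 fold change of 0.17 (SE 0.11), with an approximate 95% interval of -0.06 to 0.39. Of its exon bases, 7.74% lie under antisense exons of AL121845.1, and whether the counting used strand is not given in the sources used here.

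FLT3, the receptor for the cytokine that drives dendritic cell development, was barely detected. FLT3 (ENSG00000122025, chr13:28003274-28100592, minus strand) had 4 reads, all in tri-culture library 2 (0.163 CPM), and 0 reads in the other libraries. The mono-culture group of 0 reads allows a level up to 0.0298 CPM, which is 3 reads over that group.

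CCR7, the chemokine receptor that guides mature dendritic cells to lymph nodes, stood at the limit of detection. CCR7 (ENSG00000126353, chr17:40553769-40565472, minus strand) had 0, 24, 22 and 24 reads in tri-culture libraries 1 to 4, against 16, 0, 0 and 0 reads in mono-culture. Its reads thus came from batches 2 to 4 in tri-culture and from batch 1 in mono-culture, the reverse pattern. The log2 fold change was 2.33 (SE 1.10), and CCR7 was not called. It was called without tri-culture library 1 (log2 fold change 2.74), without mono-culture library 1 (7.17) and without batch 1 (7.59), and also with no filter on low counts (2.31). With mono-culture library 1 left out that group has no CCR7 read, and the fitted values of 7.17 and 7.59 then depend on the prior count and are no bound.

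On the per-length scale, tri-culture levels ran in the order FCER1A, CD1C, CD207, CD1E, CD1A, ZBTB46, CD1B, CD1D, CCR7 and FLT3. FCER1A averaged 272 ± 89.0 signal units, CD1C 96.7, CD207 93.7 and CD1E 58.5. The neighbours CD1C, CD207, CD1E and CD1A overlapped in their library values, as did CD1D and CCR7. In mono-culture the order was CD1C (46.4), CD1E (13.9), ZBTB46 (11.3), CD1A (8.62), CD1B (3.45), CD1D (1.74), FCER1A (0.264), CD207 (0.170), CCR7 (0.0960) and FLT3 (0). There, CD1E with ZBTB46, ZBTB46 with CD1A, and FCER1A with CD207 and CCR7 overlapped.

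The batches did not move every member in the same proportion. CD1A was 4.85, 10.2, 6.23 and 2.87 times higher in tri-culture than in mono-culture within batches 1 to 4, and CD1E 6.24, 5.52, 3.14 and 2.68 times. CD1D was 1.54, 0.451, 0.979 and 0.400 times the mono-culture level, so its direction changed between batches. Within batch 4 the ratios of CD1A, CD1C and CD1E were the lowest of the 4 batches. ZBTB46 kept ratios of 0.903, 1.17, 1.23 and 1.23. CD207 had 5, 0, 4 and 1 reads and FCER1A 0, 3, 4 and 1 reads in mono-culture libraries 1 to 4, too few for a ratio within a batch.

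**Figure D3:**
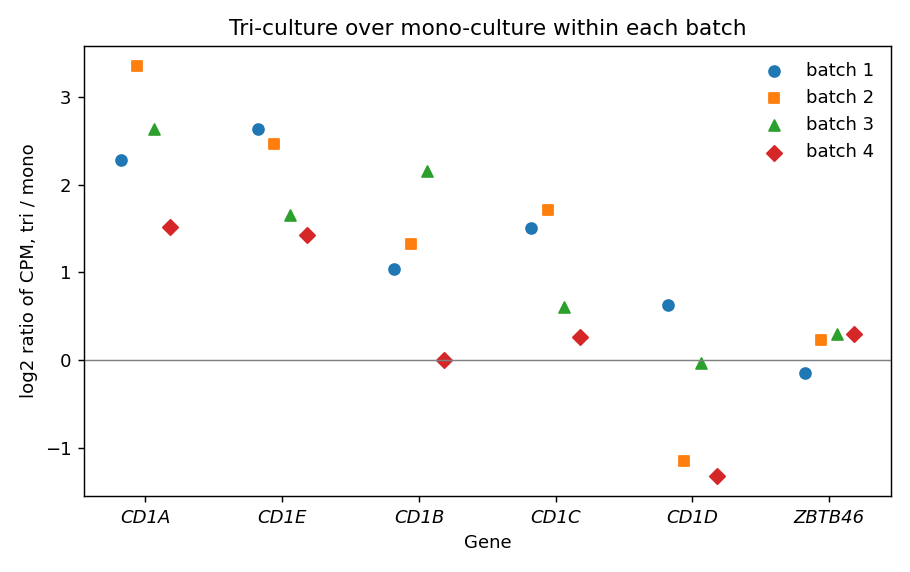
Ratio of tri-culture CPM to mono-culture CPM within each batch on a log2 axis, for 6 members, 1 point per batch. CD1A and CD1E lie above 0, which is equal levels, in all 4 batches, and CD1D falls on both sides of it.

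Within tri-culture, library 2 was the highest library for CD207, FCER1A and 4 CD1 genes (CD1A, CD1B, CD1C and CD1E), and it held the 4 reads of FLT3. CD1D was highest in library 1, and ZBTB46 and CCR7 in library 4. The lowest library differed: it was library 1 for CD207 and FCER1A, library 4 for CD1A, CD1B and CD1D, and library 3 for CD1C and CD1E. The ratio of highest to lowest tri-culture library was 2.87 for CD207, 2.65 for CD1D, 2.59 for both CD1A and CD1B and 2.16 for CD1C. It was 2.07 for FCER1A, 1.94 for CD1E and 1.26 for ZBTB46. Of these members, CD1D, next below CD207, and ZBTB46, the lowest, were not called. GFAP, an astrocyte marker, had 63.2, 151, 254 and 201 CPM in the same 4 tri-culture libraries, lowest in library 1 and highest in library 3. The astrocyte list it belongs to summed to 685, 739.8, 729 and 619 CPM, highest in library 2. S100B, with the highest tri-culture mean of that list, had 507, 436, 253 and 242 CPM, and ALDOC was highest in library 4. All other genes of the list were, like GFAP, highest in library 3. LYZ, a monocyte marker, had 262, 285, 142 and 103 CPM in the same 4 tri-culture libraries, highest in library 2. The monocyte list with LYZ summed to 472, 413, 269.8 and 220.1 CPM, highest in library 1. The part of these genes and lists in the results for the members was not tested.

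**Figure D4:**
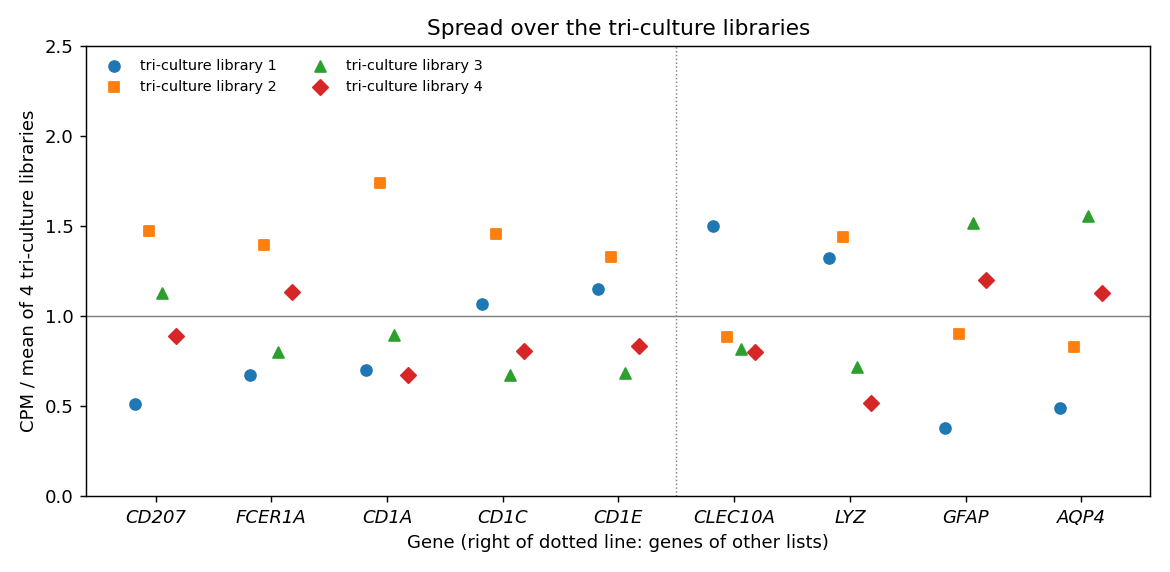
CPM in each tri-culture library divided by the mean of the 4 tri-culture libraries, 1 point per library, for 5 members (left of the dotted line) and genes of other lists (right of it). Library 2 is the highest for CD207, FCER1A, CD1A, CD1C and CD1E and for LYZ, library 1 for CLEC10A, and library 3 for GFAP and AQP4. In the astrocyte list, S100B was highest in library 1, ALDOC in library 4 and all other genes in library 3. The monocyte and cDC2 lists also held genes with other highest libraries.

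The cell type label was checked against markers. Over all tested genes, 13.9% were called higher in tri-culture and 13.0% lower, and several marker lists hold few tested genes. Of 11 tested microglia markers 5 were higher in tri-culture, 1 was lower and 5 did not pass. AIF1 averaged 416 CPM in tri-culture and 359 CPM in mono-culture, and did not pass the edgeR test (adjusted p = 0.498). CSF1R averaged 1822 CPM in tri-culture and 1391 CPM in mono-culture (edgeR adjusted p = 0.174), and it passed without tri-culture library 2 (adjusted p = 0.00964). PTPRC averaged 632 CPM in tri-culture and 620 CPM in mono-culture (edgeR adjusted p = 0.909). CX3CR1, the fractalkine receptor, averaged 833 CPM in tri-culture and 120 in mono-culture (log2 fold change 2.79). P2RY12, a purinergic receptor, averaged 71.6 CPM in tri-culture and 23.2 CPM in mono-culture (log2 1.63). SALL1, a transcription factor of microglia, averaged 9.66 CPM in tri-culture and had 0 reads in mono-culture. TREM2 and C1QB were also higher. ITGAM, the CD11b gene, was the lower one, at 61.3 CPM in tri-culture and 173 CPM in mono-culture (log2 -1.50, edgeR adjusted p = 0.00383). In the astrocyte list 7 of 10 tested genes were higher in tri-culture and 1 lower, with a summed level of 619 to 739.8 CPM in tri-culture libraries and 222 to 296 CPM in mono-culture libraries, and 3 of the 10 had 0 reads in mono-culture. Of 6 tested monocyte genes, 5 were higher and 1 lower, at 220.1 to 472 CPM in tri-culture and 188 to 215 CPM in mono-culture. Mast cell and basophil genes, whose cells also carry FCER1A, had 2 tested genes and no call, at 2.86 to 4.36 CPM in tri-culture and 1.54 to 3.06 CPM in mono-culture, and HDC and MS4A2 had 0 reads in every library. T cell and thymocyte genes, whose cells include CD1A-bearing thymocytes, had 2 tested genes and no call, at 4.35 to 6.89 CPM in tri-culture and 4.52 to 6.60 CPM in mono-culture. Of 4 tested neuron genes 2 were higher and 1 lower, and of 4 tested oligodendrocyte genes 3 were higher. The OLIG2 call was lost without tri-culture library 1 or 2, mono-culture library 1 or 3, or batch 1 or 3. Of 3 tested mesenchymal and endothelial genes 1 was higher, PECAM1. Neither CDH5 nor COL3A1 was called (edgeR adjusted p = 0.700 and 0.0505). COL3A1 had 203, 0, 222 and 81.7 CPM in tri-culture libraries 1 to 4 and at most 3.34 CPM in mono-culture. COL1A1, which did not pass the filter, had 22.8, 0.0408, 46.7 and 12.7 CPM in tri-culture and at most 0.308 CPM in mono-culture. No B cell or blood progenitor gene reached the filter. The part of RNA from other cell types in the member results was not tested.

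In the 10 pathway lists together, 81 genes were tested, of which 16 were higher (19.8%) and 18 lower (22.2%) in tri-culture, with a median log2 fold change of 0.04 beside 0.02 over all tested genes. Over all tested genes 13.9% were higher and 13.0% lower. Among cDC2 genes, 2 of 7 tested were higher and 4 lower, and 2 were lower without tri-culture library 2 or without mono-culture library 1, 2 or 3. CLEC10A, a lectin of cDC2 and macrophages, had 133 ± 44.7 CPM in tri-culture and 13.9 ± 5.55 CPM in mono-culture (log2 fold change 3.25, SE 0.28, edgeR adjusted p = 2.93e-06). IRF4, a transcription factor of cDC2, had 26.2 ± 6.44 CPM in tri-culture and 6.88 ± 2.56 CPM in mono-culture (log2 1.94, adjusted p = 6.50e-05 in edgeR). KLF4, a zinc finger transcription factor, fell to 1.10 CPM in tri-culture, against 5.97 CPM in mono-culture (log2 -2.43, edgeR adjusted p = 1.43e-05).

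Among cDC1 genes, 1 of 6 tested was higher and 1 lower (2 higher without mono-culture library 2 or with the replicate block, and 2 lower without tri-culture library 1). IRF8, a factor of cDC1 and of microglia, had 487 ± 43.5 CPM in tri-culture and 291 ± 47.2 CPM in mono-culture (edgeR adjusted p = 0.00103), and BATF3, a cDC1 factor, had 1.20 CPM in tri-culture and 3.32 CPM in mono-culture (log2 -1.47, edgeR adjusted p = 0.00135). Plasmacytoid genes gave 1 higher of 6 tested (2 without tri-culture library 1), the IL-3 receptor gene IL3RA, at 12.2 CPM in tri-culture and 3.56 CPM in mono-culture, and 1 lower, the semaphorin receptor gene NRP1, at 525 CPM in tri-culture and 1034 CPM in mono-culture.

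Langerhans-related genes gave 3 higher and 1 lower of 6 tested, with a median log2 fold change of 0.98. CDH1, the E-cadherin by which Langerhans cells adhere to keratinocytes, had 5.04 ± 1.40 CPM in tri-culture and 0.0832 CPM in mono-culture (log2 5.60, SE 0.50, edgeR adjusted p = 3.68e-06). RUNX3, a factor needed for Langerhans cell development in mice, had 346 ± 61.1 CPM in tri-culture and 116 ± 13.9 CPM in mono-culture (log2 1.58, edgeR adjusted p = 4.63e-06). AHR, which Langerhans cells use to sense aromatic ligands, was lower (log2 -0.37, edgeR adjusted p = 0.0278). That call was lost without tri-culture library 2, 3 or 4 and without mono-culture library 3 or 4, and without mono-culture library 3 the list had 5 higher.

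Maturation genes went both ways, with 4 higher and 3 lower of 13 tested. FSCN1, the actin bundler of mature dendritic cells, had 345 ± 67.1 CPM in tri-culture and 1014 CPM in mono-culture (log2 -1.55, edgeR adjusted p = 1.62e-05), and MARCKSL1 had 40.1 CPM in tri-culture and 14.0 CPM in mono-culture. CD200 had 1.48 CPM in tri-culture and 0.0298 CPM in mono-culture. CCL17 had 0 reads in every library. Dendritic lineage regulators gave 2 higher and 2 lower of 8 tested, but the count of lower genes fell to 0 without tri-culture library 1 or 2 or mono-culture library 3 or 4, and to 1 without any other single library. It was also 0 under library size scaling, upper quartile scaling and limma. IKZF1 (log2 0.50) and CEBPA (0.55) were higher, and BCL6 (-0.52) was among the lower ones. CEBPA was not called without mono-culture library 3 (edgeR adjusted p = 0.0578) or 4 (0.0702). BCL6 was not called without tri-culture library 1 or 2 or without mono-culture library 2, 3 or 4 (edgeR adjusted p = 0.0647 to 0.127). SPI1, the gene of PU.1, averaged 486 ± 50.9 CPM in tri-culture and 485 ± 49.6 CPM in mono-culture (edgeR adjusted p = 0.988).

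Of the genes that load lipids onto CD1 molecules or move them through the cell, 1 was higher and 2 were lower of 14 tested. The count of higher genes was 2 without tri-culture library 2 or 4 or without any 1 mono-culture library, and 4 were lower without tri-culture library 1. With the replicate block 2 were higher and 3 lower. Library size scaling gave 3 higher, as did no filter on low counts, and DESeq2 gave 2 higher and 4 lower. MTTP, also of this list, was too low to test, with 60 reads in tri-culture and 0 in mono-culture. GM2A, a lipid transfer protein, had 794 ± 131 CPM in tri-culture and 418 ± 124 CPM in mono-culture (log2 0.93, edgeR adjusted p = 0.00314). AP3D1, a subunit of the adaptor that sorts CD1B, had a log2 fold change of -0.66, and ARF6 had -0.55. B2M, the light chain shared by CD1 molecules, averaged 1480.2 CPM in tri-culture and 1343 CPM in mono-culture (edgeR adjusted p = 0.666).

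Of 9 tested genes of the FCER1 complex and its signalling, 1 was higher and 3 were lower, and 2 were lower without tri-culture library 1, 3 or 4 or without mono-culture library 1, 2 or 4. FCER1G, the signalling chain of the receptor, averaged 334 ± 42.9 CPM in tri-culture and 429 ± 47.2 CPM in mono-culture (log2 -0.36, edgeR adjusted p = 0.0583). SYK, the kinase below it, was higher at 539.6 CPM in tri-culture and 385 CPM in mono-culture (log2 0.49), but was not called without batch 3 or 4 (edgeR adjusted p = 0.0559 and 0.0537), while the adaptor gene GAB2 (-0.63) was lower. FCER2, the low-affinity IgE receptor, had 0 reads in tri-culture and 89 in mono-culture. Against 3 reads over the tri-culture group that is at least 25.1-fold lower in tri-culture.

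Of the genes around the other receptors, 1 of 7 tested FLT3 signalling genes passed, SH2B3 (log2 -0.66, edgeR adjusted p = 0.00104), and it was lower (2 were lower without tri-culture library 2). In the CCR7 group 1 of 5 tested genes passed: CXCR4, a chemokine receptor of many leukocytes, had 36.4 ± 8.20 CPM in tri-culture and 3.40 ± 0.751 CPM in mono-culture (log2 3.40, edgeR adjusted p = 1.84e-07).

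**Figure D5:**
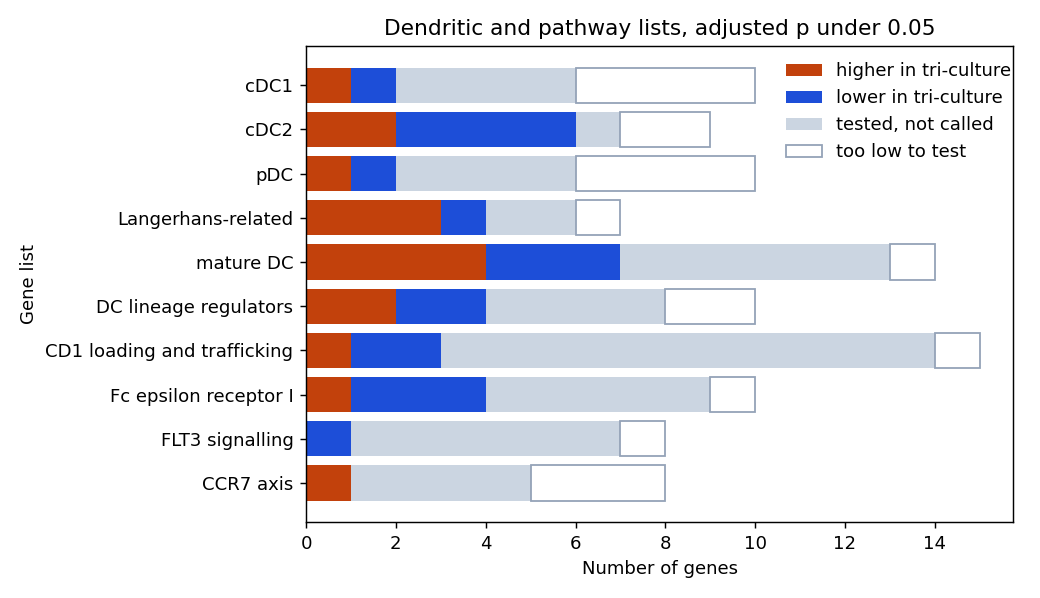
Number of tested genes in each list that were called higher or lower in tri-culture or not called at an edgeR adjusted p of 0.05, with genes too low to test in white. The cDC2 bar holds 2 higher and 4 lower genes of 7, and the Langerhans-related bar 3 higher and 1 lower of 6.

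Genes with the most alike values over both groups together were found as the smallest Euclidean distance between centred log2 CPM values over the 8 libraries. For CD1C these were PKIB, TMEM71 and PTPN22, at distances of 0.556, 0.625 and 0.663. For CD207 they were PADI2, AQP4 and NTRK2, at 1.01, 1.58 and 1.72. For FCER1A they were NTRK2, GFAP and AQP4, at 1.76, 2.24 and 2.33. AQP4 and NTRK2 had 0 reads in mono-culture. For CD207 and FCER1A, genes nearly absent from mono-culture with a gap of similar size come nearest by construction. The distance therefore does not show a shared profile within tri-culture. There, FCER1A had 59.0, 122, 70.2 and 99.2 CPM in libraries 1 to 4, against 63.2, 151, 254 and 201 CPM for GFAP.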

How the data were processed

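GFP-sorted H1-derived microglia were sequenced in bulk, 4 tri-culture and 4 mono-culture libraries. The submitters' processing notes name HISAT2 2.1.0, featureCounts 2.12.3 and the build GRCh38 for the deposited counts, which are whole reads per gene. For annotation release, use of strand and multi-mapping reads, the choice is not given in the sources used. A deposited table named TPM holds a per-length signal from the authors whose library totals are not equal, so it was used as a signal of unstated scaling, only to compare levels between genes. Counts of 16249 genes passing filterByExpr (minimum count 10, minimum total 15) were scaled by TMM and tested with edgeR 4.0.16 quasi-likelihood (R 4.3.3), group only, with Benjamini-Hochberg adjustment over all of them and a threshold of 0.05. A positive log2 fold change means higher in tri-culture, and its SE was approximated as its size over the root of the F statistic. Alternatives included DESeq2 1.42.0, limma 3.58.1, other scalings and filters, a replicate block and leaving out libraries.

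The members and the gene lists (dendritic subsets, Langerhans-related, maturation, lineage regulators, CD1 loading, FCER1, FLT3 and CCR7 genes, and markers of 10 cell types) were chosen with earlier results of these data known. Named genes are the members, up to 3 called genes of a list with the smallest adjusted p, AIF1, CX3CR1, CSF1R, PTPRC and the 3 genes nearest to each of FCER1A, CD1C and CD207. B2M, SPI1, FCER1G, AHR, ITGAM, TREM2, C1QB, CCL17, MS4A2 and HDC were named for their roles after their values were seen. S100B, ALDOC, CDH5, COL1A1, COL3A1 and MTTP were also named after their values were seen. Some genes that the rule selects are not reported here. The labels mark a shared batch by the replicate number, which pairs tri-culture with mono-culture libraries. The 2 libraries of batches 1 to 4 deviated from their group means with correlations of 0.185, 0.126, 0.264 and 0.0796. Replicates differed by more than sampling noise (the chi-square statistic was 9.21 to 65.1 per degree of freedom), and none was merged. Floors and intervals cover counting error only, and reads without molecular identifiers are not independent molecules.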

Additional observations from a re-analysis of the deposited data

Results flagged for a closer look

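In 7 of 104 groups of 4 libraries (52 genes), 1 library lay far from the other 3 by Dixon's ratio at the 95% level, which chance gives in about 1 in 20 groups. CCR7 had 0.548 CPM in mono-culture library 1 and 0 in the other mono-culture libraries. CLEC10A had 199 CPM in tri-culture library 1, against 106 to 117 CPM in the other tri-culture libraries. FSCN1 had 246 CPM in tri-culture library 2, against 367 to 386 CPM in the others. CD200 had 0.119 CPM in mono-culture library 3 and 0 in the others. CEBPA had 72.8 CPM in tri-culture library 1, against 61.2 to 62.5 CPM in the others. SYK had 446 CPM in mono-culture library 1, against 358 to 372 CPM in the others. CXCR4 had 2.28 CPM in mono-culture library 4, against 3.67 to 3.89 CPM in the others.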

How the results depend on the processing

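CD207, FCER1A, CD1A, CD1C, CD1D, CD1E and ZBTB46 kept their direction and their side of the threshold in all 22 alternatives run. CD207 ran from 8.03 to 9.49 and FCER1A from 9.02 to 10.41 in log2 fold change, both lowest with a prior count of 2. CD1A ran from 2.14 to 2.87, CD1E from 1.89 to 2.30, CD1C from 0.78 to 1.34, ZBTB46 from 0.11 to 0.27 and CD1D from -0.73 to -0.13. CD1B kept its call in 17 of 22 and CCR7 its lack of one in 17 of 21. The alternatives with another prior count are among those numbers, but they changed only the fold. Their adjusted p was that of the main fit, so no call could change in them. Members called higher were 6, with 5 to 7 when libraries or batches were left out and 7 with no filter. With the replicate block, 6 members were called higher and 0 lower, pathway genes were 19 higher and 20 lower, all genes 2370 higher and 2363 lower, and no member's call changed.

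Pathway genes called lower were 18, but 11 with library size only and with upper quartile scaling, and 11 to 16 when libraries or batches were left out, with 11 without batch 3; the cause was not tested. Over all genes, 2261 were higher and 2112 lower (51.7% of calls higher). Library size only gave 63.0% and upper quartile 60.6%, with the median log2 fold change of all genes at 0.12 instead of 0.02 under library size only. With CPM in place of the per-length signal, the CD1C share was 49.7% in tri-culture and 65.6% in mono-culture, since length is then not divided out. Among markers that were never called in these fits, PTPRC (0.03) turned to -0.02, -0.01, -0.01 and -0.00 without tri-culture library 1, tri-culture library 2, mono-culture library 1 and mono-culture library 3, and to -0.05 and -0.01 without batches 1 and 2, with 0.13 the highest, without batch 4. AIF1 (0.21) turned to -0.01 without tri-culture library 1, with 0.36 the highest, without batch 4. CSF1R was called without tri-culture library 2 (0.57) and without batch 2 (0.57). Few reads limit FLT3 and CCR7, and the folds of CD207 and FCER1A, which rest on 10 and 8 mono-culture reads.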

Other observations

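The 5 CD1 genes lie within 178 kb of chromosome 1, and FCER1A lies 0.932 Mb from CD1E. The window from CD1D to FCER1A with 200000 bases on each side holds 28 protein-coding genes, of which 22 are not members. Of these 22, 15 had 10 reads or fewer over the 8 libraries, 11 of them none, and 6 were tested. The genes named here were chosen after their values were seen. MNDA, a nuclear antigen of myeloid cells, had 160.0 CPM in tri-culture and 50.9 CPM in mono-culture (log2 1.65, edgeR adjusted p = 8.00e-05). KIRREL1 had 6.50 CPM in tri-culture and 31.3 CPM in mono-culture (log2 -2.27), the opposite direction. CADM3, with 0 reads in mono-culture, stood at least 143-fold higher in tri-culture when set against a floor of 3 reads over the mono-culture group.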
